A study of Mus musculus with 19 samples.

Results

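Amino acid transporters are the membrane carriers that move amino acids and small peptides into and out of cells, and a fixed list of 35 of their genes, all of the Slc families, was followed through kidneys of fasted and fed mice. The genes were grouped by the substrate they carry, and the list was chosen with earlier results of these data known. Each was read at its brightest probe set that names no other gene, a probe set being a group of short probes for one transcript. Of the 35 genes, 34 had such a probe set, of 17097 genes measured in the same way. Slc1a4, a neutral amino acid exchanger, is not listed with a probe set of its own and has no value here.

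RNA from the kidneys of 19 male mice was measured on Affymetrix microarrays of the HT MG-430 PM type, with a separate array for each mouse, and the values are log2 levels after robust multi-array averaging (RMA). Young mice were C57BL/6J, 10 to 14 weeks of age and 22 to 25 g. Aged mice, which the labels call old, were F1 hybrids of FVB and C57BL/6J, on average 73 weeks of age and about 47 g. Within each age, mice had either eaten ad libitum (5 young, 5 aged) or had water but no food for 3 days (4 young, 5 aged), and none had undergone renal ischemia. The comparison asks how 3 days without food change these transcripts in a kidney, and whether the change differs between young and aged animals. The labels give no transgene or deletion for any group. Because age, strain and body weight changed together, they cannot be told apart in any difference between young and aged mice.

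The proximal tubule takes back nearly all filtered amino acids. Carriers in the brush border, many of them coupled to sodium or protons, bring amino acids in from the urine, and exchangers and uniporters in the basolateral membrane pass them on to the blood. Several carriers are made of a light chain that transports and a heavy chain that brings it to the surface. Slc3a1 (rBAT) is the heavy chain of the apical cystine and cationic carrier Slc7a9, and loss of either gives cystinuria. Slc3a2 (4F2hc) is the heavy chain of basolateral and other light chains, among them Slc7a5, Slc7a6, Slc7a7 and Slc7a8, and loss of Slc7a7 gives lysinuric protein intolerance. Some listed carriers, such as Slc36a1, Slc38a7 and Slc38a9, are also known from the lysosomal membrane, where Slc38a9 takes part in arginine sensing by mTORC1.

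Array medians lay between 4.15 and 4.21 in the young and between 3.44 and 3.49 in the aged mice, so levels were compared within each age only. A difference between ages in the size of a fasting effect is free of such an offset, but it presumes that a log2 unit means the same in both sets of arrays, which was not tested. Proximal tubule markers (6 of 10 listed genes measured) had a median log2 level of 11.47 to 11.53 in young fed and 11.57 to 11.71 in young fasted mice, and of 11.24 to 11.50 in aged fed and 11.52 to 11.72 in aged fasted mice. These are pieces of whole kidney, in which fewer cells of a type and less RNA per cell cannot be told apart. Markers of late proximal tubule (segment S3) moved with fasting. Their median level was 11.25 to 11.37 in young fed and 9.30 to 9.77 in young fasted mice, and 9.41 to 9.73 in aged fed and 9.20 to 9.47 in aged fasted mice, and 4 of these 6 genes fell in each age, while 1 rose in aged mice. Of 6 markers of the earlier segments S1 and S2, 2 rose and 3 fell in young and 1 rose and 3 fell in aged mice. Loop and distal tubule markers had medians of 10.74 to 11.12 in young fed and 10.89 to 11.08 in young fasted mice. Their medians were 9.67 to 10.46 in aged fed and 8.79 to 9.19 in aged fasted mice. Of these markers, 3 of 7 fell in young and 2 of 7 in aged mice. The median change of the 7 genes was -0.04 in aged mice, where 4 changes were negative and 3 positive. In young mice it was -0.10, with 5 negative and 2 positive. The part of these shifts in the changes of the carriers was not tested. Some kidneys also held RNA of liver and fat markers at levels far from those of their group, and these values stand beside the genes they touch.

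In young kidneys fasting changed 10 of the 34 genes and in aged kidneys 4 of 34, at an adjusted p of at most 0.05 in limma. In young mice Slc3a2, Slc43a1, Slc1a5, Slc6a18, Slc6a6 and Slc36a2 rose and Slc7a7, Slc6a15, Slc36a1 and Slc15a2 fell. In aged mice Slc7a12 and Slc38a9 rose and Slc7a7 and Slc36a1 fell. Only Slc7a7 and Slc36a1 passed in both ages, and both fell. The share of changed carriers, 29.4% in young and 11.8% in aged mice, stood beside 23.2% and 9.16% of all genes measured. Of all genes, 10.7% rose and 12.5% fell in young mice, and 4.32% rose and 4.84% fell in aged mice, against 17.6% and 11.8% of the carriers in young and 5.88% each way in aged mice. The shares of carriers lie near those of all genes. Their median log2 change was 0.05 in young and 0.02 in aged mice, with -0.01 over all genes in each age.

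With a fold change of at least 1.5 added, 2 carriers rose and 3 fell in young mice, beside 2.95% and 3.53% of all genes. In aged mice 1 rose and 1 fell, beside 1.39% and 1.28%. In either direction such genes made up 6.49% of all genes in young and 2.67% in aged mice. Fed and fasted levels did not overlap for 8 carriers in young mice (4 higher, 4 lower after fasting), where this held for 21.3% of all genes, and for 2 in aged mice, where it held for 10.2%. The change had the same sign in both ages for 23 of the 34 genes. Passing in both ages in the same direction was seen for 2 of 34 carriers and for 6.43% of all genes.

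**Figure D1:**
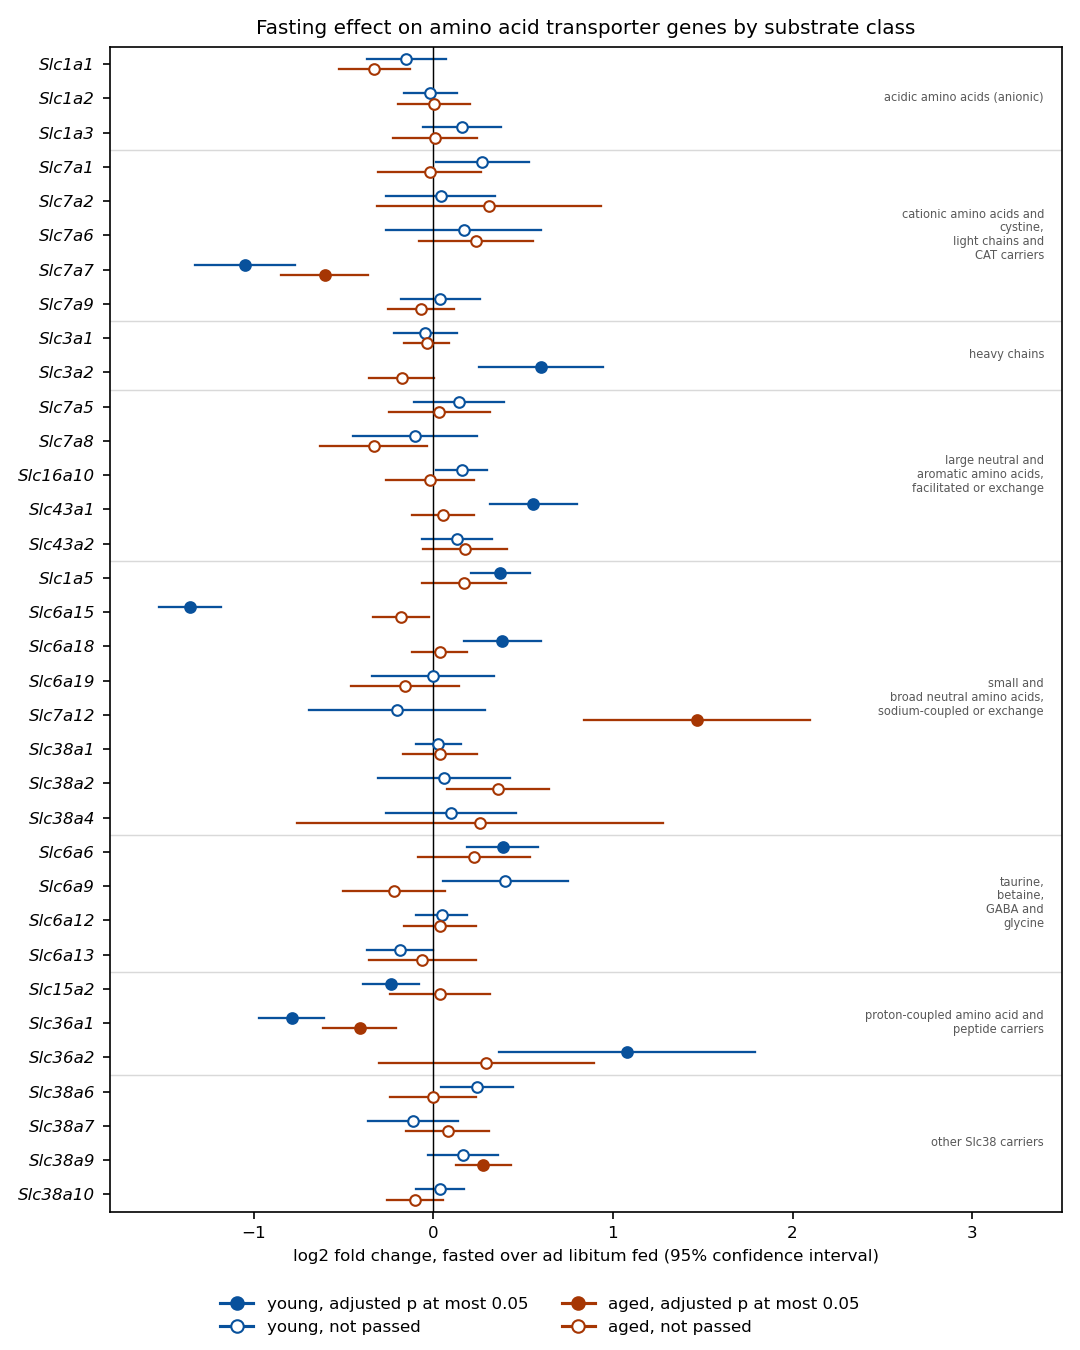
Log2 fold change of the 34 carriers, fasted over ad libitum fed, in young (blue) and aged (orange-brown) kidneys, with 95% confidence intervals from limma, grouped by substrate class. Filled points passed an adjusted p of 0.05. Most points are open and near 0, Slc7a7 and Slc36a1 are filled and lie left of 0 in both ages, and Slc6a15 and Slc7a12 are far from 0 in a single age.

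Promoter sequence is given for the pair that fell in both ages, Slc36a1 and Slc7a7, and for Slc3a2 and Slc43a1, which rose in young mice. Each window runs from 250 bases before to 50 after an annotated RefSeq start, on mouse build GRCm38.p6, which need not be the build used to design the arrays. Of the 34 measured carriers, 25 have such a window. Capitals mark matches on either strand to TGATGNAA (the core of the amino acid response element), TGACNNNGC (the antioxidant response element core) or CACGTG (the E-box). The Slc36a1 window is chr11:55204090-55204389 on the plus strand, the Slc43a1 window chr2:84840073-84840372 on the plus strand, the Slc7a7 window chr14:54417895-54418194 on the minus strand and the Slc3a2 window chr19:8713848-8714147 on the minus strand.
Slc36a1: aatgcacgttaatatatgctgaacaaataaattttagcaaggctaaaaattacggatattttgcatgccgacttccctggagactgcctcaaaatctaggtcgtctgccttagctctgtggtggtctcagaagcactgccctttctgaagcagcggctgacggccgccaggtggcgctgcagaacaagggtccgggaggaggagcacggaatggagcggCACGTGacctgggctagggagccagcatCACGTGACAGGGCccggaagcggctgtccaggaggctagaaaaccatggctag
Slc7a7: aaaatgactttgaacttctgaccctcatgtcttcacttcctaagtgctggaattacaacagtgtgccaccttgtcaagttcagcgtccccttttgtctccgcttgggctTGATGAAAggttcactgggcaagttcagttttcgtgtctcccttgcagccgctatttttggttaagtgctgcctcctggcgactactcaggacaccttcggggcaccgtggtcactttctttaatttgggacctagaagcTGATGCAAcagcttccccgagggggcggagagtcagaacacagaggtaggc
Slc3a2: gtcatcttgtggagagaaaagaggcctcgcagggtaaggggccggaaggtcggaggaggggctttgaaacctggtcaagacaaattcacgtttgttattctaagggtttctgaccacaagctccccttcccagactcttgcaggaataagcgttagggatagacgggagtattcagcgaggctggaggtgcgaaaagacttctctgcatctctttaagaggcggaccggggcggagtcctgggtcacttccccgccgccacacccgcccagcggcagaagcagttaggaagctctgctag
Slc43a1: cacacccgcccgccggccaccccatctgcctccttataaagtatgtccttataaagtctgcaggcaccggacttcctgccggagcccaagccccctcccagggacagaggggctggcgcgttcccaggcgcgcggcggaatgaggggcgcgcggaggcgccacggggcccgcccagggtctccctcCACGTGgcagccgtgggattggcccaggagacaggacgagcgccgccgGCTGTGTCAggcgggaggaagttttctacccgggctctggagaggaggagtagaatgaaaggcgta
The Slc36a1 window holds CACGTG at 2 places, and the second overlaps a TGACNNNGC match. Slc7a7 has 5 annotated starts, and the window shown, the one with the most matches, holds TGATGAAA and TGATGCAA. Of its other windows, 1 that overlaps it repeats TGATGCAA and the rest hold none of the 3 motifs. Slc43a1 holds CACGTG and, on the other strand, TGACNNNGC, and the Slc3a2 window holds none of the 3 motifs. Of all 32851 windows, 3.97% hold TGATGNAA, 12.4% TGACNNNGC and 7.15% CACGTG. Among the 25 carriers with a window, 1 gene holds TGATGNAA, 7 hold TGACNNNGC and 3 hold CACGTG in any of their windows. Over the 27025 genes with a window, 4.51% hold TGATGNAA, 14% TGACNNNGC and 8.09% CACGTG in any window. These matches describe letters in a window and not binding.

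Slc7a7 (y+LAT1) is the basolateral light chain through which lysine, arginine and ornithine leave the tubule cell. Its log2 level in the 5 young fed mice was 9.59, 9.66, 9.91, 9.26 and 9.95, and in the 4 young fasted mice 8.61, 8.79, 8.58 and 8.53. In the aged mice it was 10.70, 10.59, 10.71, 10.76 and 10.50 with food and 10.25, 9.95, 10.39, 9.85 and 9.80 after fasting. Every fasted mouse lay below every fed mouse of its age. The level fell by 1.05 on the log2 scale in young mice (2.07-fold, SE 0.13, limma adjusted p = 0.000184) and by 0.60 in aged mice (1.52-fold, SE 0.11, limma adjusted p = 0.00659). The change in aged mice minus that in young mice was 0.44 (SE 0.18, limma adjusted p = 0.253), which did not pass, with an interval from 0.07 to 0.82 before adjustment. Slc7a7 is also made by macrophages. Macrophage markers (8 of 8 measured) had medians of 6.43 to 6.95 in young fed and 5.73 to 6.14 in young fasted mice, and 6 of the 8 genes fell. In aged mice the medians were 6.02 to 6.91 with food and 5.72 to 6.73 after fasting, and 1 of 8 fell. Their part in the change of Slc7a7 was not tested.

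The other carriers of cationic amino acids did not pass in either age. Slc7a9, the apical cystine and arginine light chain, changed by 0.04 in young (95% interval -0.18 to 0.26) and by -0.07 in aged mice (-0.25 to 0.11), on levels between 10.25 and 10.96. Its heavy chain partner Slc3a1 changed by -0.04 in each age, with intervals of -0.22 to 0.13 and -0.16 to 0.09. For Slc7a9 and Slc3a1 these intervals leave room for small changes only in both ages. Slc7a6 (y+LAT2), which shares its substrates with Slc7a7 and is found in many tissues, changed by 0.17 in young and 0.24 in aged mice. Slc7a1 (CAT1), the general entry carrier of cationic amino acids, changed by 0.27 in young mice (adjusted p = 0.14 in limma) and by -0.02 in aged mice.

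Slc7a2 (CAT2), a cationic carrier abundant in liver, changed by 0.04 in young and 0.31 in aged mice without passing. In the aged group 1 fasted mouse, number 33, had a level of 5.52 while the other fasted mice had 3.87, 3.67, 3.84 and 4.11 and the fed mice 3.66 to 4.29. The same mouse had the highest liver marker median of all kidneys (8 of 10 genes measured), 10.72, against 7.68 to 8.42 in the other aged fasted and 7.04 to 8.21 in the aged fed mice. Slc38a4, a sodium-coupled neutral carrier of liver, showed the same mouse apart, at 6.36 against 3.42 to 3.77 in the other aged fasted and 3.46 to 4.35 in the aged fed mice. Among the young fasted mice, number 339 had 4.52 for Slc38a4 against 3.56 to 3.66 in the others, and its liver marker median, 9.67, was the highest of the young mice. The other young fasted mice had liver medians of 9.03 to 9.31 and young fed mice 8.10 to 8.99. Of the 8 liver markers, 3 rose and 1 fell in young mice, and 0 passed in aged mice. The changes of Slc38a4 were 0.10 in young and 0.26 in aged mice and did not pass. The part of liver RNA in these levels was not tested.

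Of the heavy chains, Slc3a2 rose in young but not in aged mice. Young fed mice had log2 levels of 8.65, 8.54, 8.71, 7.94 and 8.79, and young fasted mice 9.19, 9.03, 8.94 and 9.35. Aged fed mice had 9.96, 10.02, 10.18, 9.92 and 9.94, and aged fasted mice 9.62, 9.79, 9.88, 9.85 and 10.01. The young groups did not overlap, although 1 fed mouse lay well below the other 4, and the aged groups overlapped. The change was 0.60 in young mice (1.51-fold, SE 0.16, limma adjusted p = 0.0196) and -0.17 in aged mice (SE 0.08, limma adjusted p = 0.284). The difference between the ages, which presumes 1 scale for both sets of arrays, was itself tested and passed, at -0.77 (SE 0.18, limma adjusted p = 0.0313). Of all genes, 0.895% had a negative and 1.55% a positive difference that passed. Without young fasted mouse 344 the young change was 0.53 with an adjusted p of 0.0619 in limma. An ordinary model without variance moderation also lost the young call (adjusted p = 0.0874) and the difference (adjusted p = 0.0794). The difference no longer passed in 6 of 19 fits that each left out 1 mouse, with adjusted p-values up to 0.0775. So Slc7a7 and the heavy chain it pairs with moved in opposite directions in young fasted kidneys, and in aged kidneys Slc7a7 alone passed.

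The carriers of large neutral and aromatic amino acids include one gene that passed, Slc43a1 (LAT3), a uniporter of branched-chain amino acids and phenylalanine. Its levels were 4.54, 4.46, 4.38, 4.24 and 4.00 in young fed and 4.73, 4.78, 4.94 and 5.06 in young fasted mice, with no overlap. It rose by 0.56 (1.47-fold, SE 0.11, limma adjusted p = 0.00429). Levels in aged mice ranged from 3.04 to 3.45 with food and 3.20 to 3.31 after fasting, with a change of 0.05. The array medians of aged mice were 3.44 to 3.49, and whether this probe set was above background there is unknown. The difference between ages was -0.50 (SE 0.14, limma adjusted p = 0.0662) and did not pass. Slc43a1 is known from podocytes, whose markers (4 of 5 measured) had medians of 5.09 to 5.47 in young fed and 5.42 to 5.79 in young fasted mice, and 1 of 4 rose. Their part in the change was not tested.

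Slc43a2 (LAT4), the related basolateral uniporter, changed by 0.13 in young and 0.18 in aged mice at its brightest probe set. A dimmer probe set of the same gene rose by 0.56 in young mice (adjusted p = 0.00446 in limma), so the probe sets disagree. Slc7a8 (LAT2), the basolateral exchanger that pairs with Slc3a2, changed by -0.10 in young and by -0.33 in aged mice (adjusted p = 0.204 in limma). Slc7a5 (LAT1) changed by 0.15 and 0.03, and Slc16a10 (TAT1), an aromatic amino acid uniporter, by 0.16 and -0.02. Their levels were at most 4.39 and 3.85 in young and 4.53 and 3.60 in aged mice. Array medians were 4.15 to 4.21 in young and 3.44 to 3.49 in aged mice. None of these 4 carriers passed in either age at the brightest probe set.

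**Figure D2:**
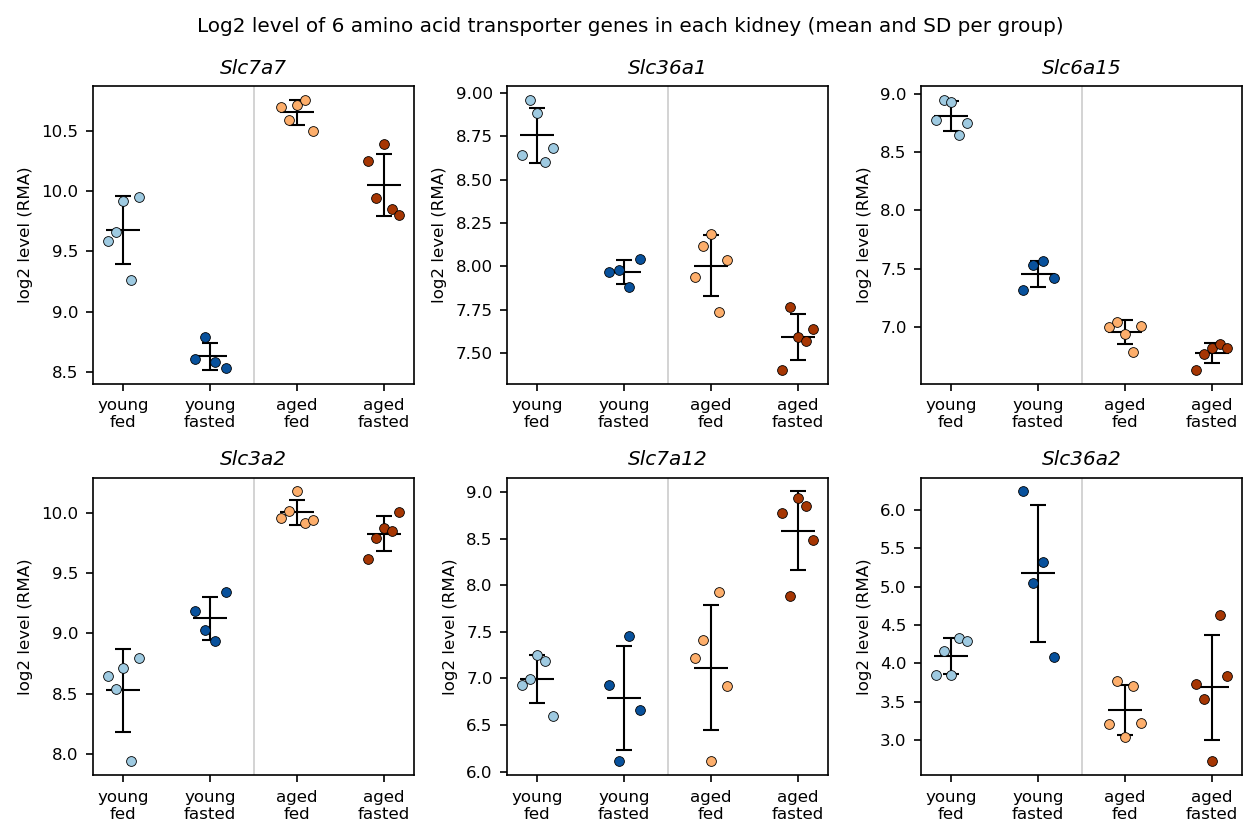
Log2 RMA level of the 6 carriers that passed with a fold change of at least 1.5 in either age, in each kidney. Points are mice, bars the group mean and SD, each panel has its own axis that does not start at 0, and levels are comparable within an age only. Slc7a7 separates fed from fasted mice in both ages, Slc36a1 lies lower after fasting in both, Slc6a15 and Slc3a2 separate the young groups, and Slc36a2 is high in 3 of 4 young fasted mice.

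Among carriers of small and broad neutral amino acids, the largest change of all 34 genes in young mice was in Slc6a15 (B0AT2), a sodium-coupled carrier of branched-chain amino acids and proline. Young fed mice had log2 levels of 8.77, 8.95, 8.93, 8.65 and 8.75, and young fasted mice 7.32, 7.53, 7.56 and 7.42. Aged fed mice had 7.00, 7.05, 6.94, 6.78 and 7.01, and aged fasted mice 6.63, 6.77, 6.82, 6.85 and 6.82. All young fasted mice lay below all young fed mice, and in aged mice the groups overlapped. The level fell by 1.35 on the log2 scale in young mice (2.56-fold, SE 0.08, limma adjusted p = 1.1e-06). In aged mice the change was -0.18 (SE 0.07, limma adjusted p = 0.193). The difference, 1.18 (SE 0.11, limma adjusted p = 4.19e-06), passed in every leave-out and under every alternative tried.

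Slc7a12 (Asc-2), an exchanger of small neutral amino acids, showed the reverse pattern and rose in aged mice. Aged fed mice had 7.22, 7.41, 6.11, 7.93 and 6.92, and aged fasted mice 8.78, 7.89, 8.93, 8.85 and 8.49. Young mice had 6.93, 6.99, 7.25, 7.19 and 6.59 with food and 6.93, 6.12, 7.45 and 6.66 after fasting. Aged mice overlapped by a single pair, fed mouse 40 at 7.93 and fasted mouse 38 at 7.89, and the aged fed levels were widely spread. The rise in aged mice was 1.47 (2.77-fold, SE 0.29, limma adjusted p = 0.009), and the change in young mice -0.20 (SE 0.22, limma adjusted p = 0.625). The call in aged mice was lost in an ordinary model without variance moderation (adjusted p = 0.0637). The difference of 1.67 (SE 0.40) passed at an adjusted p of 0.0352 in limma. It passed less firmly than that of Slc6a15, since it was lost in 11 of 19 fits that each left out 1 mouse, with adjusted p-values up to 0.0834, in the ordinary model (0.1004) and with a variance trend and robust fitting (0.0769).

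Slc1a5 (ASCT2), an exchanger of glutamine and other neutral amino acids, rose in young mice. Fed mice had 5.93, 6.17, 6.16, 6.18 and 5.97 and fasted mice 6.38, 6.49, 6.57 and 6.40, a change of 0.37 (SE 0.07, limma adjusted p = 0.00443), and its second probe set rose by 0.42 (limma adjusted p = 0.00812). In aged mice it changed by 0.17, with overlapping ranges of 5.17 to 5.77 and 5.42 to 5.70. Slc6a18 (B0AT3), a brush border carrier of the late proximal tubule, rose by 0.39 in young mice (SE 0.10, limma adjusted p = 0.0156), with ranges of 9.49 to 9.75 and 9.75 to 10.23 that met at their ends. It changed by 0.04 in aged mice. Slc6a19 (B0AT1), the main sodium-coupled neutral carrier of the early brush border, whose loss gives Hartnup disorder, changed by -0.00 in young (95% interval -0.34 to 0.34) and -0.16 in aged mice (-0.46 to 0.14). Collectrin (Cltrn), the partner that both carriers need at the kidney surface, fell by 0.25 in young mice (limma adjusted p = 0.00914) and changed by -0.24 in aged mice (limma adjusted p = 0.0794). In young mice Slc6a18 thus rose while Cltrn fell and Slc6a19 did not pass, and none of these genes passed in aged mice. The young call of Slc6a18 was lost under 3 of 11 alternatives, among them an ordinary model without variance moderation (adjusted p = 0.0592).

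The Slc38 members of this class stayed below the threshold in both ages. Slc38a1 (SNAT1) changed by 0.03 and 0.04 in young and aged mice. Its levels in aged mice were at most 3.36, below the array medians of 3.44 to 3.49. Slc38a2 (SNAT2), known for its induction when cells lack amino acids, changed by 0.06 in young and 0.36 in aged mice (limma adjusted p = 0.139) at its brightest probe set, and by 0.60 in young mice (limma adjusted p = 0.0714) at a dimmer one. Its young fasted levels were spread, from 8.74 to 9.63 at the brightest probe set.

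Acidic amino acid carriers showed no change that passed in the main comparison, although Slc1a1 lay at the threshold. Slc1a1 (EAAT3), the apical glutamate and aspartate carrier of the proximal tubule, had ranges of 10.36 to 10.74 in aged fed and 10.09 to 10.39 in aged fasted mice, which overlapped at their ends. It changed by -0.33 in aged mice (SE 0.09), just outside the threshold (limma adjusted p = 0.0507), and by -0.15 in young mice (limma adjusted p = 0.375). It passed under 6 of 11 alternatives, with adjusted p-values of 0.0169 to 0.116 over all 11, and without aged fed mouse 40, at -0.39 with an adjusted p of 0.0161 in limma. Slc1a2 and Slc1a3, best known as glial glutamate carriers, changed by -0.02 and 0.16 in young and by 0.00 and 0.01 in aged mice, on levels of at most 4.02 and 3.42.

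Of the osmolyte and glycine carriers, Slc6a6 (TauT), which takes up taurine, rose in young mice. Fed mice had 10.97, 10.94, 11.02, 10.87 and 11.09 and fasted mice 11.31, 11.28, 11.22 and 11.66, a change of 0.39 (SE 0.09, limma adjusted p = 0.0107) with no overlap. A second bright probe set also rose by 0.39 (limma adjusted p = 0.0163), while the 2 dimmest changed by 0.14 and 0.05. In aged mice the change was 0.23 and fed mouse 40, at 10.04, lay apart from the other fed mice at 10.75 to 10.97. Slc6a9 (GlyT1), a glycine carrier, changed by 0.40 in young (limma adjusted p = 0.109) and -0.22 in aged mice. The betaine carrier Slc6a12 changed by 0.05 and 0.04, and Slc6a13 (GAT2), which carries GABA and betaine, by -0.18 and -0.06. Slc6a12 levels were at most 3.22 in young and 3.18 in aged mice, below the array medians of each age.

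All 3 proton-coupled carriers passed in young mice, and Slc36a1 also in aged mice. Slc36a1 (PAT1) carries glycine, alanine and proline with protons. Its levels were 8.64, 8.96, 8.88, 8.60 and 8.68 in young fed and 7.97, 7.98, 7.88 and 8.04 in young fasted mice. They were 7.94, 8.12, 8.19, 7.74 and 8.04 in aged fed and 7.40, 7.77, 7.59, 7.57 and 7.64 in aged fasted mice. The young groups were apart, and the aged groups met in fed mouse 40 and fasted mouse 38. The level fell by 0.79 in young mice (1.73-fold, SE 0.08, limma adjusted p = 6.1e-05) and by 0.41 in aged mice (1.33-fold, SE 0.09, limma adjusted p = 0.0213). The difference of 0.38 (SE 0.13) did not pass (adjusted p = 0.153 in limma). The call in aged mice was lost without fed mouse 36, fed mouse 37 or fasted mouse 41, with adjusted p-values of 0.0539, 0.056 and 0.0566 in limma. Slc15a2 (PEPT2), the high-affinity peptide carrier of the late proximal tubule, had levels of 11.07, 11.15, 11.02, 11.27 and 11.15 in young fed and 10.75, 10.88, 11.00 and 10.97 in young fasted mice. The groups did not overlap but nearly met. It fell by 0.23 (SE 0.07, limma adjusted p = 0.0388), a call lost in 6 of 9 leave-outs, and changed by 0.04 in aged mice. A second probe set fell by 0.30 (limma adjusted p = 0.0252) and the dimmest changed by -0.03.

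Slc36a2 (PAT2), a glycine and proline carrier that is also a surface protein of brown fat cells, was the most uneven of the genes that passed. Young fed mice had 3.85, 4.16, 3.85, 4.33 and 4.30, and young fasted mice 339, 340, 343 and 344 had 6.25, 5.05, 5.32 and 4.08. Aged fed mice had 3.21, 3.78, 3.04, 3.70 and 3.23, and aged fasted mice 3.73, 3.54, 2.72, 4.62 and 3.83. Thus 3 of the 4 young fasted mice lay above all fed mice and the other within them, and the aged groups overlapped. The change in young mice was 1.08 (2.11-fold, SE 0.32, limma adjusted p = 0.0372) and that in aged mice 0.30 (SE 0.28, limma adjusted p = 0.645). Array medians were 4.15 to 4.21 in young and 3.44 to 3.49 in aged mice. Whether this probe set was above background in fed mice is unknown. The median of brown fat markers (7 of 8 measured) was 3.43 to 3.91 in young fed mice. For young fasted mice 339, 340, 343 and 344 it was 7.30, 5.93, 6.65 and 3.76. Of these 7 genes, 3 rose and 1 fell in young mice. White fat markers (6 of 8 measured) had medians of 10.37, 9.29, 9.96 and 6.50 in the same mice and 7.96 to 8.93 in young fed mice, but 0 of these 6 genes rose and 1 fell, and 4 of the 6 changes were negative. The order of these 4 mice was the same for Slc36a2 and for both fat marker lists, and mouse 344 was at the fed level for Slc36a2 and for the brown fat markers. Brown fat medians in aged mice were 3.94 to 7.54 with food and 3.53 to 6.59 after fasting, and fasted mouse 39 had the lowest value of both measures in its group. Without young fasted mouse 339 the change was 0.72 (limma adjusted p = 0.0635), and the call was lost in 8 of 9 leave-outs. The part of brown fat RNA in this result was not tested.

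**Figure D3:**
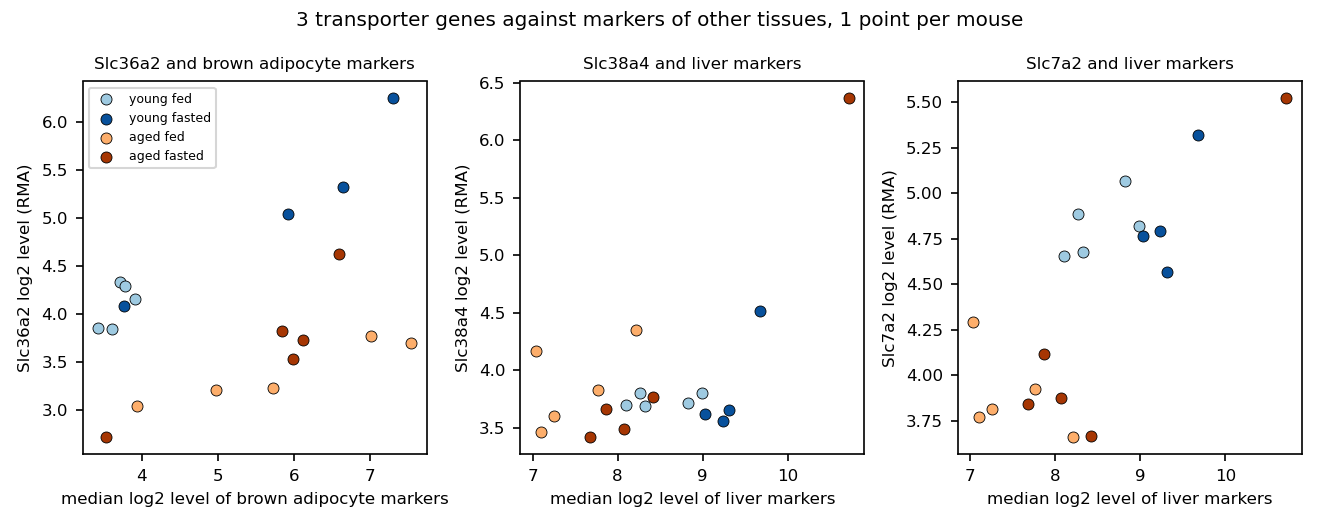
Log2 RMA level of Slc36a2, Slc38a4 and Slc7a2 in each kidney against the median log2 level of brown adipocyte markers (left) and liver markers (middle, right), 1 point per mouse coloured by group. The 3 young fasted mice with high Slc36a2 are the 3 with high brown adipocyte markers, and aged fasted mouse 33, at 10.72 for liver markers, holds the highest Slc38a4 and Slc7a2. The points share arrays, and array scale differs between young and aged mice.

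Of the other Slc38 carriers, Slc38a9, the lysosomal arginine sensor, rose in aged mice. Fed mice had 5.92, 5.97, 5.92, 5.98 and 5.81 and fasted mice 6.07, 6.11, 6.31, 6.22 and 6.30, with no overlap. The rise was 0.28 (1.21-fold, SE 0.07, limma adjusted p = 0.033), and its 3 dimmer probe sets changed by 0.24, 0.17 and 0.01 without passing. The call was lost in 6 of 10 leave-outs, with adjusted p-values up to 0.0881. In young mice Slc38a9 changed by 0.16 (limma adjusted p = 0.253). Slc38a6 changed by 0.24 in young (limma adjusted p = 0.0918) and -0.00 in aged mice, Slc38a7, a lysosomal glutamine carrier, by -0.11 and 0.08, and Slc38a10 by 0.04 and -0.10.

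The listed genes leave out other carriers of the same families, and 22 of 27 such genes were measured. In young mice 4 rose and 2 fell, and in aged mice 1 rose and 3 fell, and 0 had a difference between ages that passed in limma (2 higher and 2 lower at an unadjusted p under 0.05). Slc38a3 (SNAT3), the basolateral glutamine carrier that feeds renal ammonia production, rose in both ages. Its levels were 5.77 to 6.29 in young fed and 8.20 to 8.59 in young fasted mice, and 5.23 to 6.60 in aged fed and 7.89 to 8.18 in aged fasted mice. The groups did not overlap in either age. It rose by 2.46 in young (SE 0.12, limma adjusted p = 4.25e-07) and by 2.36 in aged mice (SE 0.22, limma adjusted p = 5.57e-05), and with its probe sets averaged by 1.23 and 1.22. Slc6a20a (a proline carrier) rose by 0.94 in young mice (limma adjusted p = 0.00045) and changed by 0.57 in aged mice (limma adjusted p = 0.107). Slc6a20b, a close copy of it, fell by 0.50 in young mice, and cross-hybridisation between the copies was not tested. Slc43a3, a relative that carries purine bases, rose by 0.59 in young mice (limma adjusted p = 0.000469) and changed by 0.38 in aged mice. Slc7a13 (AGT1), a cystine and acidic amino acid light chain of the S3 segment that is also on the S3 marker list, fell by 0.89 in young (limma adjusted p = 2.51e-05) and by 0.59 in aged mice (limma adjusted p = 0.0411). Its probe sets disagree in size, since the most variable one fell by 2.42 in young mice and changed by -0.14 in aged mice (limma adjusted p = 0.901). The call in aged mice was lost under 5 of 11 alternatives and in 6 of 10 leave-outs.

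Several carriers, Slc3a2 among them, are known targets of the ATF4 pathway, which raises amino acid synthesis and uptake when amino acids are short. Of 15 listed genes of that response, 14 were measured. In young mice 10 rose and 0 fell in limma, and in aged mice 2 rose and 0 fell, beside 10.7% and 4.32% of all genes that rose. At an unadjusted p under 0.05, 11 were higher and 1 lower in young mice and 6 higher and 1 lower in aged mice. An ordinary model without variance moderation, run as an alternative, gave 8 and 0 in young and 1 and 0 in aged mice. In aged mice 4 rose with array weights, and 1 fell with quantile normalization or all arrays in 1 fit. The median log2 change was 0.62 in young and 0.16 in aged mice. The difference between ages, aged minus young, passed for 6 of the 14 and was negative for all 6, beside 2.44% of all genes in either direction. That count was 3 in the ordinary model and 3 at an adjusted p of at most 0.01. For Phgdh and Trib3 the difference (-0.63 and -0.82) was larger in size than the rise in young mice (0.38 and 0.80). At the probe set of largest variance the difference did not pass for Phgdh (-0.53, limma adjusted p = 0.204). For Eif4ebp1 it had the opposite sign there (0.14, limma adjusted p = 0.54). Asns, the asparagine synthetase, is an example chosen after its values were seen, with 5.56 to 6.16 in young fed, 6.82 to 7.24 in young fasted, 4.71 to 5.10 in aged fed and 4.90 to 5.57 in aged fasted mice. It rose by 1.21 in young mice (limma adjusted p = 7.07e-05) and changed by 0.40 in aged mice (limma adjusted p = 0.113), a difference of -0.81 (limma adjusted p = 0.0374). That difference was lost in 11 of 19 leave-outs (adjusted p up to 0.0892), in the ordinary model (0.0932) and with array weights (0.0631). A negative difference between ages passed for part of this list and for Slc3a2. It did not pass for Slc1a5, Slc43a1, Slc7a1, Slc7a5, Slc38a2 or Slc6a9 (-0.62, limma adjusted p = 0.167), and Slc43a1 passed under 2 of 11 alternatives. The part of the ATF4 pathway in any change of a carrier was not tested.

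**Figure D4:**
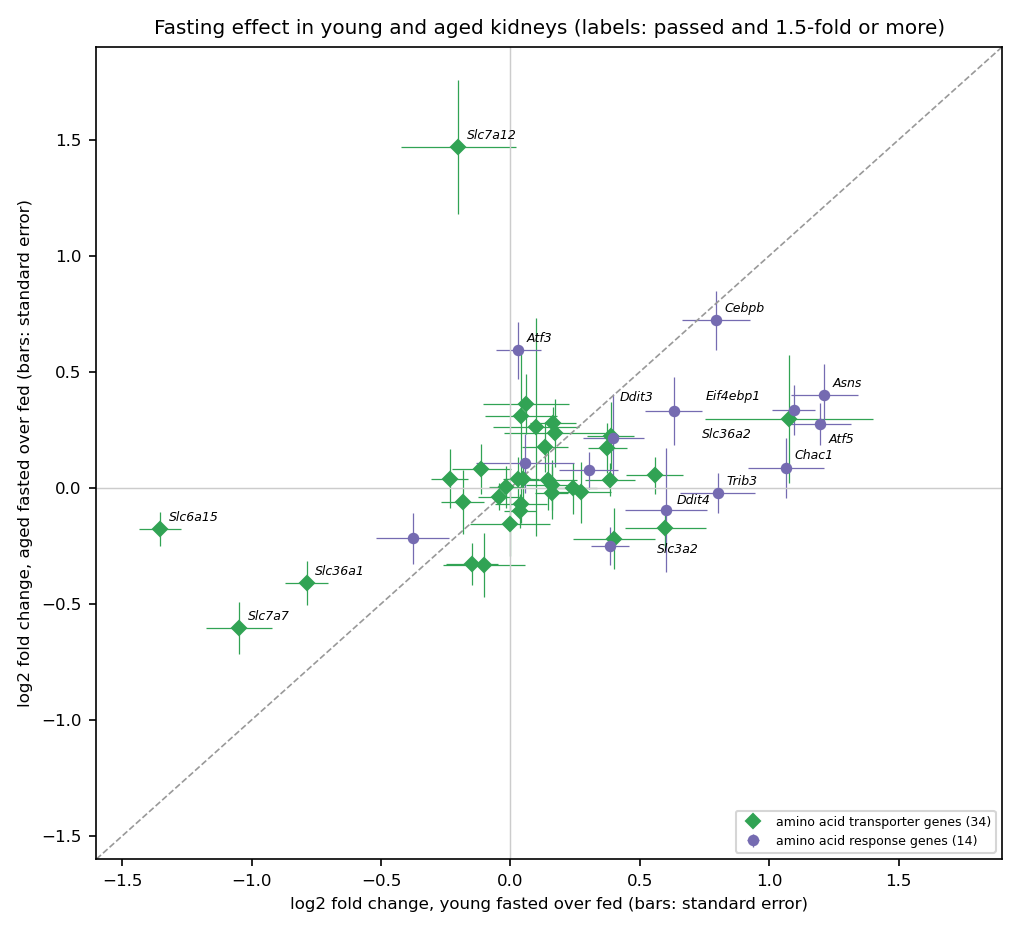
Log2 fold change, fasted over ad libitum fed, in young (horizontal) against aged kidneys (vertical) for the 34 measured carriers (diamonds) and 14 amino acid response genes (circles), with standard errors and a line of equal change. Names mark genes that passed with a fold change of at least 1.5 in either age. Response genes such as Asns lie right of 0 and below the line, Slc7a7 and Slc36a1 lie lower left, Slc6a15 far left and Slc7a12 at the top.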

How the data were processed

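Total RNA from frozen pieces of both kidneys of 19 male mice was labelled with biotin and measured on Affymetrix microarray plates of the HT MG-430 PM type, 1 array per mouse. The authors background-corrected, normalized and summarised the probes by robust multi-array averaging and deposited the result as log2 values (45141 probe sets). The version of the software and the genome build are not given in the sources used here. Array medians differ between young and aged mice. Whether a probe set was above background is unknown, and the number of arrays limits precision.

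Probe sets were named through the platform annotation, of which 28898 name 1 gene, 551 several and 15692 are unlisted, and those naming several genes were left out for naming. Each gene was read at its single-gene probe set with the highest mean over all arrays. Fasted and ad libitum fed mice were compared within each age with limma 3.58.1 (lmFit and eBayes, R 4.3.3) on all probe sets, with Benjamini-Hochberg adjustment over all of them, and the difference of the fasting effects in 1 fit of 4 group means. A gene passed at an adjusted p of at most 0.05. The programs were tested on simulated data. Mice are separate animals, so p-values measure spread between mice of 1 strain and age.

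All members are named with their log2 fold changes. Those that passed with a fold change of at least 1.5 in either age, or in the difference, have the level of every array and full statistics, and some further members have them as well. Of the other carriers, those past 1.5-fold are named. Slc6a20b, Asns and the response genes given as differing between ages, and Slc6a8, were named after their values were seen. The members and lists were chosen with earlier results of these data known. Alternatives covered the variance model, the samples in a fit, array weights, normalization, centring, a filter on low values, the choice of probe set, stricter thresholds and leaving out each mouse. Promoter windows are from RefSeq on GRCm38.p6.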

Additional observations from a re-analysis of the deposited data

Results flagged for a closer look

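In 8 of 136 groups of mice, over 34 carriers and 4 groups each, 1 mouse stood apart from the others. The measure is the gap to its nearest neighbour divided by the range of the group, and chance flags about 1 in 20 groups. In aged fasted mouse 33 this held for Slc38a4 (0.880) and Slc7a2 (0.759), and in young fasted mouse 339 for Slc38a4 (0.900). All 3 values were the highest of their groups, and both mice had the highest liver marker medians of their groups, 10.72 and 9.67. Slc7a1 in aged fed mouse 37 had a ratio of 0.728, Slc6a6 in aged fed mouse 40 0.761, Slc1a5 in aged fasted mouse 39 0.852, Slc7a5 in young fed mouse 347 0.767 and Slc7a8 in young fed mouse 349 0.812.

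The fasting effect differed between ages for 3 carriers, as the effect in aged minus that in young mice in limma. The difference was 1.18 for Slc6a15, -0.77 for Slc3a2 and 1.67 for Slc7a12. Among amino acid response genes it was -0.98 for Chac1, -0.92 for Atf5, -0.82 for Trib3, -0.81 for Asns, -0.76 for Eif4ebp1 and -0.63 for Phgdh. Age, strain and weight cannot be told apart in these differences. They also presume that a log2 unit is the same in the young and the aged arrays, whose medians differ (4.15 to 4.21 and 3.44 to 3.49), and this was not tested.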

How the results depend on the processing

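The number of carriers that rose in young mice, 6, was 3 in an ordinary model without variance moderation and 2 with either a fold change of at least 1.5 or an adjusted p of at most 0.01. It was 5 to 7 when each mouse was left out in turn, and the number that fell, 4, was 3 to 4 over all settings. In aged mice the number that rose, 2, was 1 in the ordinary model, with a variance trend and robust fitting, with quantile normalization, with the mean of a gene's probe sets, with the probe set of largest variance and at either stricter threshold. The number that fell in aged mice, 2, was 1 in the ordinary model and at either stricter threshold, and 3 under 6 other alternatives, where Slc1a1 passed as well. Leaving out each mouse gave 1 to 2 that rose (1 without aged fed mouse 37 or 43 or aged fasted mouse 39, 41 or 42) and 1 to 4 that fell (1 without aged fed mouse 36 or 37 or fasted mouse 41, 4 without aged fed mouse 40). Positive differences between ages, 2, became 1 in the ordinary model, with a variance trend and robust fitting and at an adjusted p of 0.01. The 1 negative difference became 0 in the ordinary model and at 0.01, and 2 when separate fits were combined or probe sets averaged. Leaving out each mouse gave 1 to 2 positive and 0 to 1 negative differences, and the cause was not tested.

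Slc7a7 in both ages, Slc36a1 in young mice, and Slc6a15 in young mice and in the difference passed under all 11 alternatives and without any 1 mouse, while Slc36a1 in aged mice lost its call under 3 of 11. Slc6a8, a creatine carrier of the other list that rose by 0.30 in young mice, changed by -0.10 with probe sets averaged and by -0.50 at the probe set of largest variance, and the difference for Eif4ebp1 was 0.14 there. Slc1a3 and Slc6a12 have no value with the lowest 40% of probe sets left out. No paired analysis was possible because the labels give no pairs of fed and fasted mice. The paper describes matching mice in pairs by body weight and sex, without saying whether this covered the mice on the arrays.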
